A study of Mus musculus with 8 samples.

Results

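The genes described here are 10 that act on the decision of a T cell to leave the G1 phase of the cell cycle. They are the D cyclins Ccnd2 and Ccnd3, the kinases Cdk4 and Cdk6, the CDK inhibitors Cdkn1a, Cdkn1b, Cdkn2a, Cdkn2c and Cdkn2d, and the retinoblastoma gene Rb1. They were chosen by name, with earlier results of these data known, and all 10 were found among the 47069 Ensembl genes of the deposited tables. One of them, the inhibitor gene Cdkn2c, was lower in Ebi3-Treg, at 7.63 ± 3.94 FPKM, against 36.4 ± 10.9 FPKM in Blimp1-Treg (SD, n = 4 each). FPKM is fragments per kilobase of gene and megafragment of the library, so it can be set side by side between genes. The 8 others that were abundant enough to be tested did not pass, and Cdkn2a was close to 0 in every library.

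D cyclins are made in response to growth signals and join CDK4 or CDK6. The active kinases phosphorylate the Rb protein, which then releases E2F transcription factors, and E2F factors switch on genes of DNA synthesis. INK4 inhibitors, encoded by the Cdkn2 genes, bind CDK4 and CDK6 and keep them from D cyclins, while the CIP/KIP inhibitors p21 (Cdkn1a) and p27 (Cdkn1b) bind cyclin-CDK complexes and block CDK2 above all. In lymphocytes CDK6 is the partner of D cyclins best known from T cell development and leukaemia, and p27 and p18 (Cdkn2c) are known to limit T cell proliferation in mice.

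RNA was sequenced from regulatory T cells (Tregs) of lymph nodes of 35EbiT × Blimp1-GFP KI mice (C57BL/6, aged 6 to 8 weeks), so that both populations carried both reporters. Cells with Thy1.1 and without Blimp1 were taken as Ebi3-Treg, cells with Blimp1 and without Thy1.1 as Blimp1-Treg, all of them positive for CD4 and CD25 and, per the extraction protocol, low for CD62L. Each population had 4 libraries numbered 1 to 4, numbers 1 and 2 in one FPKM table and 3 and 4 in another. Neither separate nor pooled animals are stated for the replicates, and p values therefore cover a spread between samples that may be technical.

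The libraries held 13.3 to 31.3 M fragments (M, mega), which makes 1 read in 1 kb equal to 0.0320 to 0.0750 FPKM. The 7 markers of Tregs and CD4 T cells, Foxp3, Cd4 and Cd3e among them, were present in every library, at a sum of 3597 to 6114 FPKM in Ebi3-Treg and 4457 to 9355 FPKM in Blimp1-Treg. Of the B cell markers, Cd79a, a chain of the B cell receptor complex, was at 65.1 FPKM in Ebi3-Treg 1 and at 52.0 FPKM in Blimp1-Treg 1, against at most 2.31 FPKM in the other libraries. Ighm did not follow it, at 1168, 1154, 1545 and 1902 FPKM in Ebi3-Treg 1 to 4 and 1944, 1715, 1745 and 2214 FPKM in Blimp1-Treg 1 to 4, and Cd22 was at 43.1, 10.9, 44.5 and 28.8 FPKM in Ebi3-Treg 1 to 4 and at 4.02 to 22.2 FPKM in Blimp1-Treg, where replicate 1 was the highest. Over all 8 B cell markers the sum was 1203 to 1964 FPKM in Ebi3-Treg and 1747 to 2250 FPKM in Blimp1-Treg, most of it Ighm. The 8 myeloid markers summed to 11.4 to 107 FPKM in Ebi3-Treg and 6.09 to 33.8 FPKM in Blimp1-Treg, most of it Lyz2, with Csf1r at 2.40 FPKM or less. The 5 markers of CD8 T and NK cells summed to 11.4 to 53.6 FPKM in Ebi3-Treg and 10.2 to 33.1 FPKM in Blimp1-Treg, and the 5 of plasma cells to 203 to 375 FPKM in Ebi3-Treg and 257 to 427 FPKM in Blimp1-Treg, mostly Xbp1. The 6 of stroma and endothelium summed to 30.5 to 64.8 FPKM in Ebi3-Treg and 16.8 to 34.7 FPKM in Blimp1-Treg, mostly Pecam1, and the 4 erythroid ones to 0.334 to 10.9 FPKM in Ebi3-Treg and 0.675 to 10.2 FPKM in Blimp1-Treg. None of the 23 markers abundant enough to be tested (of 43 in all) passed with limma. No marker was at 0 in all 8 libraries. At an unadjusted p under 0.05 there were 4, where 18.6% of all genes tested had such a p. A fit blocked on replicate number called 8, where it called 22.4% of all genes. In that fit Cd22, Cd79b, Lyz2 and Pecam1 were higher in Ebi3-Treg, and Cd3e, Ctla4, Ighm and Irf4 were lower. The part of other cells in the results below was not tested. Xist was nearly absent from replicates 1 and 2 (at most 0.0750 FPKM) but stood at 18.5 to 24.4 FPKM in the others, and the sex of the mice cannot be told apart from the table.

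Differences are log2 fold changes on the log2(FPKM + 1) scale, positive where Ebi3-Treg was higher, averaged over the 2 tables and tested with limma at an adjusted p under 0.05 over all 12273 genes tested. Of the 9 members tested, 0 were higher and 1 was lower, beside 6.29% called among all genes, 3.37% higher and 2.93% lower. At an unadjusted p under 0.05 the members numbered 1 higher and 3 lower, where 18.6% of all genes had such a p, 11.0% higher and 7.57% lower. In bulk RNA, for these genes and those of the later cell cycle, fewer cells that express a gene and less of its RNA per cell cannot be told apart. The median log2 fold change of the 9 was -0.10, against 0.07 over all genes tested. Libraries with the same number deviated together, although for numbers 3 and 4 no more than libraries did across those numbers. The fit blocked on replicate number called 1 member higher and 3 lower, where 22.4% of all genes were called, 13.5% higher and 8.94% lower. The members added by the block were Cdk4, higher, and Cdk6 and Cdkn1a, lower. In replicates 3 and 4 alone 0 members were higher and 3 lower, beside 11.0% of all genes called, 5.51% higher and 5.47% lower. Ebi3-Treg and Blimp1-Treg libraries did not overlap for 2 of the 9, Cdk4 and Cdkn2c, where 11.1% of all genes did not overlap, 6.63% higher and 4.50% lower. All 4 same-numbered pairs had the same sign for 7 of the 9, 3 higher and 4 lower, and for 44.2% of all genes, 28.0% higher and 16.3% lower.

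**Figure D1:**
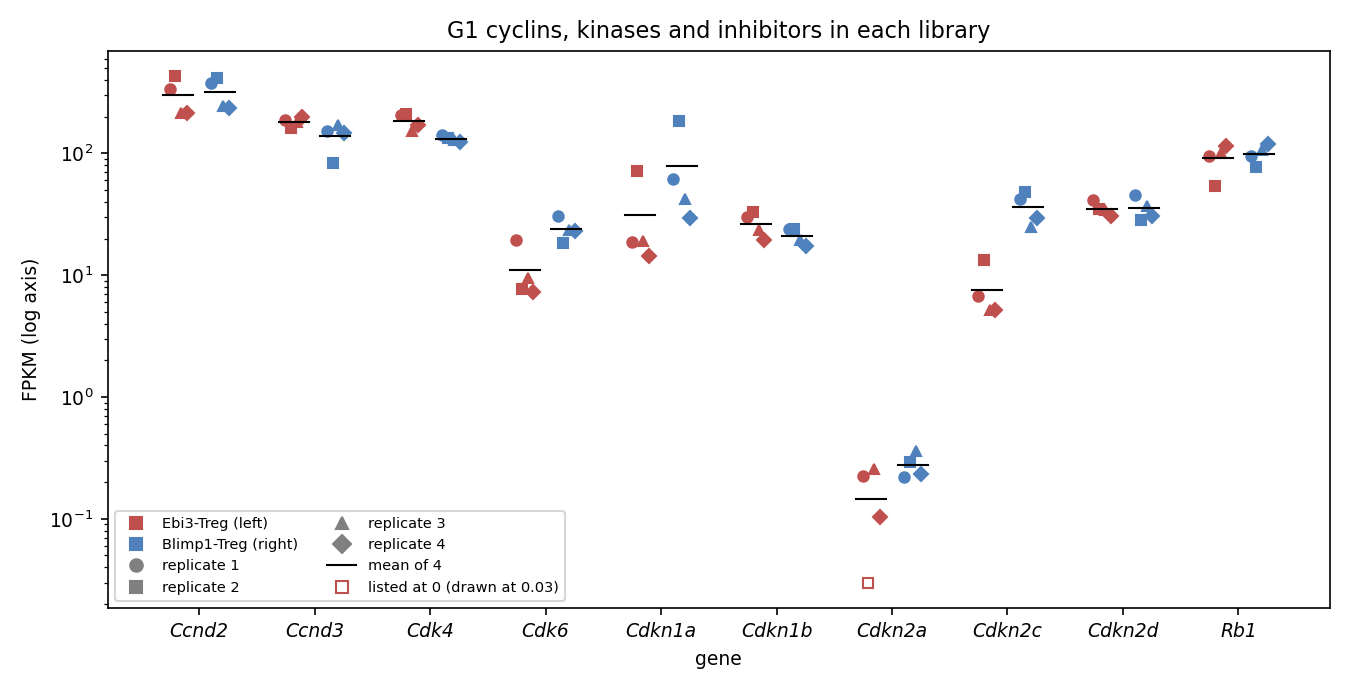
FPKM (log axis) of the 10 genes in each library, Ebi3-Treg in red on the left and Blimp1-Treg in blue on the right of each gene, with replicate numbers as symbols and the mean of 4 libraries as a line. The Cdkn2c points of Ebi3-Treg, at 5.16 to 13.4 FPKM, all lie under those of Blimp1-Treg, at 25.0 to 48.4 FPKM, while Cdkn2a lies under 0.36 FPKM throughout.

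Among the D cyclins, Ccnd2 was the most abundant of all 10 genes in both populations. It was at 336, 432, 214 and 217 FPKM in Ebi3-Treg 1 to 4, and at 379, 414, 244 and 235 FPKM in Blimp1-Treg 1 to 4. All Blimp1-Treg libraries lay within the range of Ebi3-Treg, and in both populations replicates 1 and 2 were above replicates 3 and 4. For Ccnd2 the log2 fold change was -0.10 (SE 0.13, adjusted p = 0.787), with a 95% interval from -0.39 to 0.18. Ccnd3, the D cyclin that developing thymocytes depend on in mice, was at 188, 161, 180 and 199 FPKM in Ebi3-Treg 1 to 4, and at 154, 82.9, 172 and 148 FPKM in Blimp1-Treg 1 to 4. Ebi3-Treg was above Blimp1-Treg within every number, although the populations overlapped. Its log2 fold change was 0.43 (SE 0.21, adjusted p = 0.333), with an interval from -0.05 to 0.91, and the adjusted p was 0.0698 in the blocked fit. Blimp1-Treg 2 was the lowest of the 8 libraries for Ccnd3, and without it the log2 fold change was 0.22 (adjusted p = 0.443). Ccnd1, the remaining D cyclin, was too low to be tested, at 0.235 to 1.34 FPKM in Ebi3-Treg and 0.0646 to 0.501 FPKM in Blimp1-Treg.

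The partner kinases had fold changes of opposite sign, neither past the threshold. Cdk4, the kinase that all D cyclins can activate, was at 206, 212, 153 and 172 FPKM in Ebi3-Treg 1 to 4, and at 143, 133, 130 and 124 FPKM in Blimp1-Treg 1 to 4. Every Ebi3-Treg library was above every Blimp1-Treg library. At a log2 fold change of 0.47 (SE 0.12, 95% interval 0.20 to 0.74), Cdk4 missed the threshold (adjusted p = 0.0567) but was called in the blocked fit (adjusted p = 0.0111). Within the tables the log2 fold change was 0.59 for replicates 1 and 2, against 0.35 for replicates 3 and 4. In the reference annotation 19.7% of the Cdk4 exon length lies over exons of Tspan31 on the opposite strand. Tspan31 was itself higher, at 50.3 to 77.9 FPKM in Ebi3-Treg against 18.2 to 34.7 FPKM in Blimp1-Treg (log2 fold change 1.06, adjusted p = 0.0382). The libraries are not stated to keep the strand, and the part of Tspan31 reads in the Cdk4 value was not tested.

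Cdk6, the other kinase of D cyclins, was at 19.6, 7.68, 9.55 and 7.28 FPKM in Ebi3-Treg 1 to 4, and at 30.4, 18.4, 23.4 and 23.3 FPKM in Blimp1-Treg 1 to 4. It was lower in Ebi3-Treg within every number, and the populations overlapped only because Ebi3-Treg 1 exceeded Blimp1-Treg 2. Its log2 fold change of -1.13 had an SE of 0.30 and an adjusted p of 0.0696, so Cdk6 was not called, but it was in the blocked fit (SE 0.15, adjusted p = 0.00347). Replicate 1, which had the most Cd79a, was the highest for Cdk6 in both populations. Without both libraries numbered 1 the log2 fold change was -1.31 (adjusted p = 0.00267), and without Ebi3-Treg 1 alone it was -1.43 (adjusted p = 0.0106). In replicates 3 and 4 alone it was -1.38 (adjusted p = 0.0124), against -0.89 (adjusted p = 1.0) in replicates 1 and 2.

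As a share of the summed FPKM of both kinases, Cdk6 made up 8.70%, 3.50%, 5.87% and 4.07% in Ebi3-Treg 1 to 4, and 17.6%, 12.1%, 15.3% and 15.8% in Blimp1-Treg 1 to 4. The mean was 5.53% ± 2.34 in Ebi3-Treg and 15.2% ± 2.26 in Blimp1-Treg (SD, n = 4 each), and the shares did not overlap. Cdk4 was thus the more abundant kinase transcript in all 8 libraries. Of the summed FPKM of Ccnd2 and Ccnd3, Ccnd2 made up 60.8% ± 9.57 in Ebi3-Treg and 68.6% ± 11.2 in Blimp1-Treg (SD, n = 4 each), with overlap between the populations. These shares are given without a test.

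**Figure D2:**
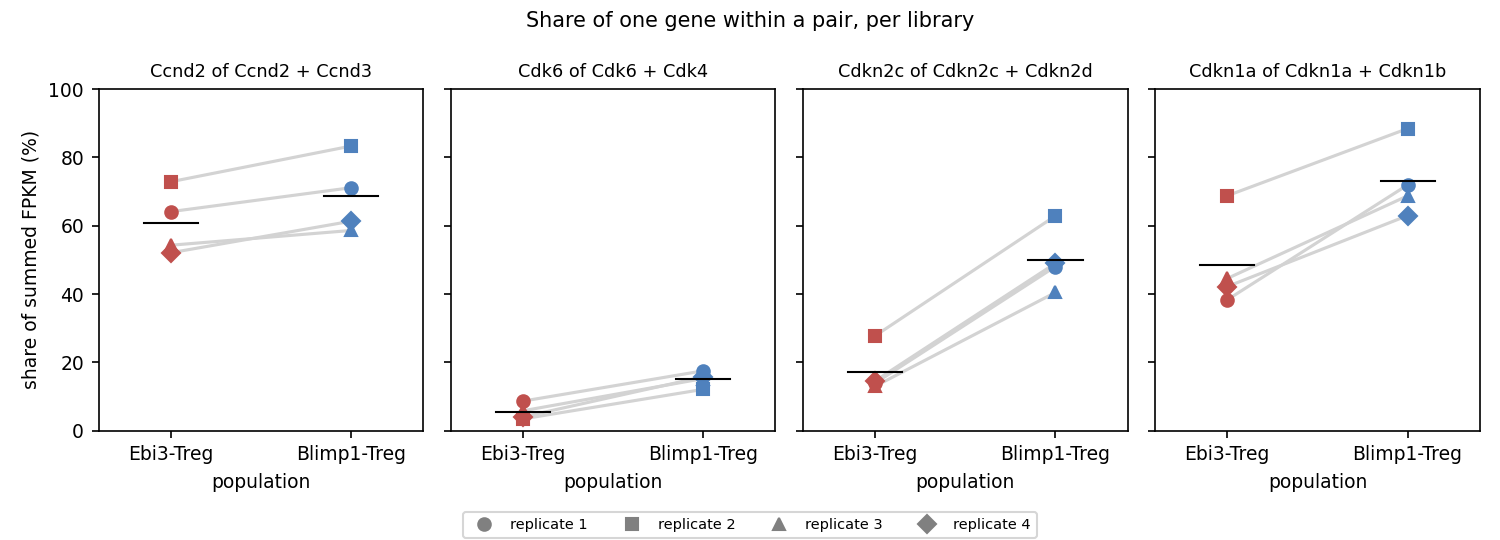
Share (%) of one gene in the summed FPKM of a pair of related genes, per library, with Ebi3-Treg left of Blimp1-Treg, grey lines joining libraries of the same number and black lines at the mean of 4. The shares of Cdk6 (mean 5.53% in Ebi3-Treg and 15.2% in Blimp1-Treg) and of Cdkn2c (17.3% in Ebi3-Treg and 50.1% in Blimp1-Treg) were lower in every Ebi3-Treg library than in any Blimp1-Treg library.

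The INK4 inhibitors held the one member past the threshold. Cdkn2c, which encodes p18, was at 6.73, 13.4, 5.16 and 5.19 FPKM in Ebi3-Treg 1 to 4, and at 42.6, 48.4, 25.0 and 29.6 FPKM in Blimp1-Treg 1 to 4. The highest Ebi3-Treg library, replicate 2, was below the lowest Blimp1-Treg library. For Cdkn2c the fold change on the log2 scale was -2.16 (SE 0.21, adjusted p = 0.00138), with a 95% interval from -2.64 to -1.68, and the ratio of the means was 0.21. Both tables gave nearly the same size, -2.14 for replicates 1 and 2 (adjusted p = 0.331), where no gene of all those tested was called, against -2.19 for replicates 3 and 4 (adjusted p = 0.00434), and the difference between tables was -0.06 (adjusted p = 1.0). When each library was left out in turn, the log2 fold change stayed between -2.35 and -1.99 and the adjusted p between 0.00173 and 0.0108. These values rest on 123 to 485 reads in Ebi3-Treg and 778 to 2382 reads in Blimp1-Treg, at the shortest gene length that gives whole reads in all 8 libraries.

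Cdkn2c has a pair of start sites in the RefSeq annotation of GRCm38.p6, and a value per gene does not separate them. The upstream window of each is shown because Cdkn2c was the member that changed, with the windows of Cdk6 and of the near-silent Cdkn2a for comparison. Each is the 250 bases before the start site, 5′ to 3′ on the strand of the gene, from RefSeq, and capitals mark CG dinucleotides. The upstream start of Cdkn2c (chr4:109666757-109667006, minus strand) has 77.2% G and C and 29 CG dinucleotides. The downstream start (chr4:109665373-109665622, minus strand) has 42.8% and 6. The Cdk6 window (chr5:3343643-3343892, plus strand) has 66.0% and 22, and the window of the upstream start of Cdkn2a (chr4:89294620-89294869, minus strand) has 78.4% and 40.
Cdkn2c, upstream start: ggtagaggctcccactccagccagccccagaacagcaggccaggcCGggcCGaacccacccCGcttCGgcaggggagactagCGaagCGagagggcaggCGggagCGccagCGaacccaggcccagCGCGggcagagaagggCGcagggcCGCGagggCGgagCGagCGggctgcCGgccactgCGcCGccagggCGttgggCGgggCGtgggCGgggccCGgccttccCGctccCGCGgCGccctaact
Cdkn2c, downstream start: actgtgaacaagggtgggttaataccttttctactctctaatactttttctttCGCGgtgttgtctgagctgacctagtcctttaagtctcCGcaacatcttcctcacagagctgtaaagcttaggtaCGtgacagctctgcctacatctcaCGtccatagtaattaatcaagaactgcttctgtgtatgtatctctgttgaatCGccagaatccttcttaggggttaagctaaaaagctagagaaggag
Cdk6: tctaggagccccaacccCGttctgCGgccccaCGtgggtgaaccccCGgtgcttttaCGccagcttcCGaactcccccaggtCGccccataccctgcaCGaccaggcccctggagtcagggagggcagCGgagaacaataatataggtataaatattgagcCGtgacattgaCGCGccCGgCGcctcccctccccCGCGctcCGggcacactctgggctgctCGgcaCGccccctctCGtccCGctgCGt
Cdkn2a, upstream start: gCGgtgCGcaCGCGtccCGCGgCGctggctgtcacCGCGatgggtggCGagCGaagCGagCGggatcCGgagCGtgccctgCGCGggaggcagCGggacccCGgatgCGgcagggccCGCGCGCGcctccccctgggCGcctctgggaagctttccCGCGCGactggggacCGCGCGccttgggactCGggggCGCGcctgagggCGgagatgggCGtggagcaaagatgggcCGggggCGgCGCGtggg

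The median over all 32851 windows of the table is 52.4% G and C and 6 CG dinucleotides, so the downstream start of Cdkn2c is the one of the 4 no richer in CG than that median. The E2F letters TTTCCCGC, TTTCGCGC, TTTGCCGC and TTTGGCGC, searched on both strands, occur in 1.86% of all windows. Among the 12 windows of the 8 members in the table they were found once, 92 to 99 bases before the upstream start of Cdkn2a. The Blimp1 letters AGTGAAAG and AGCGAAAG, on both strands, occur in 1.5% of all windows and in none of the 12. The CCAAT letters, on both strands, occur in 33.8% of all windows and in windows of Ccnd3, Cdkn1b and Cdkn2d. A match is a description of letters in these windows only.

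Neither of the other INK4 members was called. Cdkn2d, which encodes the mouse p19 of the INK4 family, was at 41.4, 34.9, 34.4 and 30.3 FPKM in Ebi3-Treg 1 to 4, and at 46.0, 28.6, 36.7 and 30.8 FPKM in Blimp1-Treg 1 to 4. The ranges overlapped, and the log2 fold change was 0.01 (SE 0.18, adjusted p = 0.995), with an interval from -0.41 to 0.42. Cdkn2c made up 14.0%, 27.8%, 13% and 14.6% of the summed FPKM of Cdkn2c and Cdkn2d in Ebi3-Treg 1 to 4, against 48.1%, 62.9%, 40.5% and 49.0% in Blimp1-Treg 1 to 4. By mean FPKM the 2 inhibitors were thus close in Blimp1-Treg, with Cdkn2c above Cdkn2d in replicate 2 only. In every Ebi3-Treg library Cdkn2d was the higher by FPKM.

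Cdkn2a, which encodes p16 and, from another reading frame, the p53 activator ARF, was at 0.224, 0, 0.258 and 0.104 FPKM in Ebi3-Treg 1 to 4. In Blimp1-Treg 1 to 4 it was at 0.220, 0.293, 0.357 and 0.234 FPKM. That is 5, 0, 3 and 2 reads in Ebi3-Treg 1 to 4 against 6, 5, 6 and 3 reads in Blimp1-Treg 1 to 4 at the shortest gene length that gives whole reads, and 3 reads in Ebi3-Treg 2 would be 0.170 FPKM. A difference was not detectable at this depth, and the gene did not enter the test. Its neighbour Cdkn2b, which encodes p15, was at 0.870, 2.63, 0.862 and 1.27 FPKM in Ebi3-Treg 1 to 4, and at 2.18, 2.87, 4.45 and 6.69 FPKM in Blimp1-Treg 1 to 4. Its log2 fold change was -1.04 (SE 0.33, adjusted p = 0.129, with 0.0435 in the blocked fit), lower within every number.

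The CIP/KIP inhibitors had fold changes of opposite sign, neither past the threshold. Cdkn1a, which encodes p21 and is a classic target of p53, was at 18.8, 72.2, 18.9 and 14.3 FPKM in Ebi3-Treg 1 to 4, and at 61.4, 184, 42.4 and 29.6 FPKM in Blimp1-Treg 1 to 4. Replicate 2 was far above the other replicates in both populations, and within every number Ebi3-Treg was lower. The fold change on the log2 scale was -1.28 with an SE of 0.47 and an adjusted p of 0.183. In the blocked fit the SE was 0.12 and the adjusted p was 0.000918. The same-numbered pairs gave -1.66, -1.34, -1.12 and -1.0 for replicates 1 to 4. Without both libraries numbered 2 the log2 fold change was -1.26 (adjusted p = 0.00935), and in replicates 3 and 4 alone it was -1.06 (adjusted p = 0.0477).

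Cdkn1b, which encodes p27, was at 30.2, 32.8, 23.6 and 19.6 FPKM in Ebi3-Treg 1 to 4, and at 24.0, 24.1, 19.3 and 17.4 FPKM in Blimp1-Treg 1 to 4. Ebi3-Treg was higher within every number by a small margin, and the populations overlapped. For Cdkn1b the log2 fold change was 0.30 (SE 0.13, adjusted p = 0.281), with an interval from -0.01 to 0.60, and the adjusted p was 0.0512 in the blocked fit. Cdkn1a made up 38.3%, 68.8%, 44.6% and 42.2% of the summed FPKM of Cdkn1a and Cdkn1b in Ebi3-Treg 1 to 4, against 71.9%, 88.4%, 68.7% and 63.0% in Blimp1-Treg 1 to 4. Within every number the share was lower in Ebi3-Treg, and Ebi3-Treg 2 lay inside the range of Blimp1-Treg.

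Rb1, whose product holds back E2F factors, was at 95.3, 53.8, 101 and 116 FPKM in Ebi3-Treg 1 to 4, and at 95.4, 77.8, 106 and 119 FPKM in Blimp1-Treg 1 to 4. Replicate 2 was the lowest in both populations, and the ranges overlapped. Its log2 fold change was -0.16 (SE 0.19, adjusted p = 0.792), with an interval from -0.61 to 0.29. It rested in large part on Ebi3-Treg 2, without which it was 0.02 (adjusted p = 0.946). Exons of Rcbtb2 on the opposite strand cover 8.11% of the Rb1 exon length, and those of Lpar6 cover 6.78%. Rcbtb2 was itself lower, at 24.6 to 32.8 FPKM in Ebi3-Treg against 42.1 to 51.8 FPKM in Blimp1-Treg (log2 fold change -0.72, adjusted p = 0.0284), and the part of its reads in the Rb1 value was not tested.

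By mean FPKM level, the order in Ebi3-Treg was Ccnd2 (299.5 FPKM), Cdk4 (186), Ccnd3 (182), Rb1 (91.4), Cdkn2d (35.3), Cdkn1a (31.1), Cdkn1b (26.5), Cdk6 (11.0) and Cdkn2c (7.63), with Cdkn2a last. In Blimp1-Treg it was Ccnd2 (318 FPKM), Ccnd3 (139), Cdk4 (133), Rb1 (99.6), Cdkn1a (79.3), Cdkn2c (36.4), Cdkn2d (35.5), Cdk6 (23.9) and Cdkn1b (21.2), again with Cdkn2a last. Between neighbours in these orders, the means of Cdk4 and Ccnd3, of Cdkn2d and Cdkn1a, of Cdkn1a and Cdkn1b, and of Cdk6 and Cdkn2c in Ebi3-Treg differed by less than the larger SD of the pair. In Blimp1-Treg that held for Ccnd3 and Cdk4, Rb1 and Cdkn1a, Cdkn1a and Cdkn2c, Cdkn2c and Cdkn2d, and Cdk6 and Cdkn1b. The gene lengths behind the deposited FPKM were not used here.

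**Figure D3:**
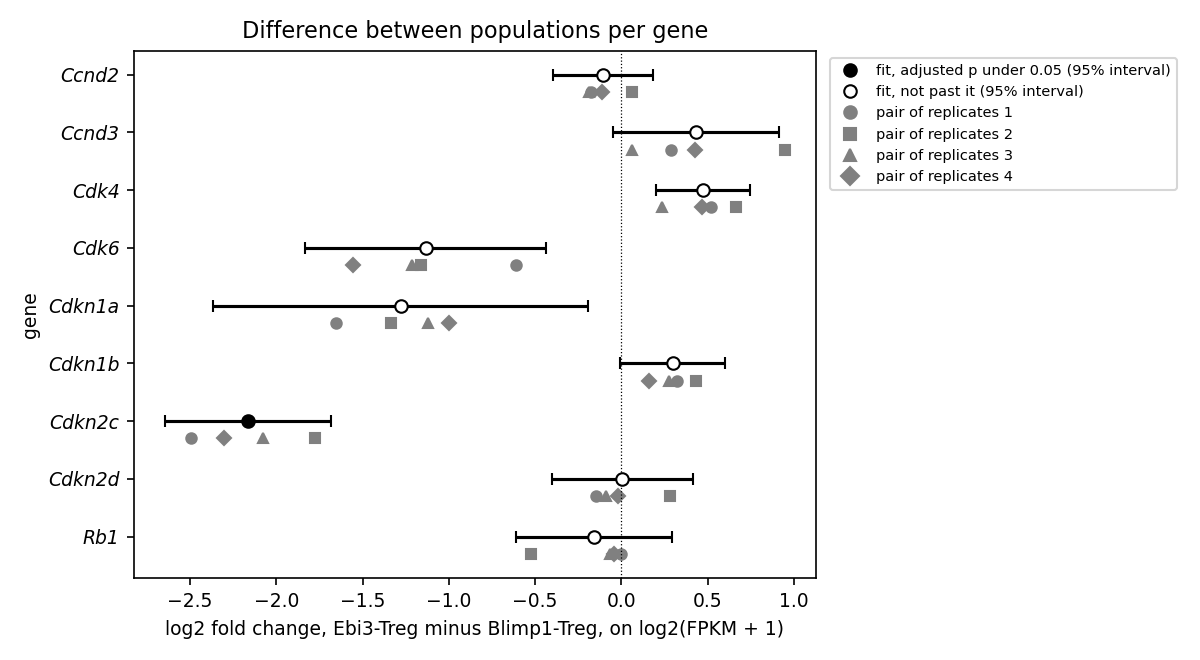
Log2 fold change of the 9 genes tested, Ebi3-Treg minus Blimp1-Treg on log2(FPKM + 1), with the 95% interval of the fit (circles, black where the adjusted p was under 0.05) and the difference of each same-numbered pair (grey symbols). Cdkn2c, at -2.16, is the one filled circle, and the pairs of Cdkn1a, from -1.66 to -1.0, lie closer together than the interval of its fit.

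Downstream of the G1 switch, of 12 genes of the G2 and M phases 8 fell, 0 rose and 4 did not pass. Their median log2 fold change was -1.44 against 0.07 over all genes, and all 12 fell in the blocked fit. Beside this list and those below, 2.93% of all genes tested fell and 3.37% rose. In the blocked fit 8.94% of all genes fell and 13.5% rose. The lists were chosen with earlier results of these data known, so the counts describe these genes and do not test the lists. Birc5, which encodes survivin, was at 4.47, 5.81, 1.26 and 1.25 FPKM in Ebi3-Treg 1 to 4, and at 14.4, 20.02, 6.15 and 6.96 FPKM in Blimp1-Treg 1 to 4 (log2 fold change -1.65, adjusted p = 0.00211). Every same-numbered pair went the same way, although replicates 1 and 2 were above 3 and 4 in both populations. The call on Birc5 was lost in a fit that left out the table (adjusted p = 0.136). Log2 fold changes were similar for Ccnb2, a cyclin of mitosis, at -1.52 (adjusted p = 0.00406), Aurkb, a mitotic kinase gene, at -1.62 (adjusted p = 0.00985) and the checkpoint kinase gene Bub1, at -1.51 (adjusted p = 0.0111). Leaving out Ebi3-Treg 4 ended the call on Bub1 (adjusted p = 0.0501). In replicates 1 and 2 the log2 fold changes of Birc5, Ccnb2, Aurkb and Bub1 were -1.56, -1.31, -1.19 and -1.08. In replicates 3 and 4 they were -1.74, -1.72, -2.05 and -1.94, and no difference between tables was called.

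Of 15 S phase genes known as E2F targets, 5 fell, 0 rose and 10 did not pass, with a median of -0.49, and 9 fell in the blocked fit. The sign was negative for all 15, and for 5003 of all 12273 genes tested. Rrm2, a subunit of ribonucleotide reductase, was at 45.3, 48.9, 17.4 and 20.2 FPKM in Ebi3-Treg 1 to 4, and at 126, 137, 73.1 and 89.6 FPKM in Blimp1-Treg 1 to 4 (log2 fold change -1.76, adjusted p = 0.00124). The populations did not overlap. Mcm6, a subunit of the replicative helicase, averaged 152 ± 23.1 FPKM in the 4 Ebi3-Treg libraries and 299.8 ± 26.2 FPKM in the 4 Blimp1-Treg libraries (± SD; log2 fold change -0.99, adjusted p = 0.00726). Cdc6 (-1.19, adjusted p = 0.0217) and Cdt1 (-0.58, adjusted p = 0.0306), which load that helicase, were called with all libraries. Both calls were lost when Ebi3-Treg 2, 3 or 4, or Blimp1-Treg 1, 3 or 4, was left out, with adjusted p up to 0.0886 for Cdc6 and 0.137 for Cdt1. They were also lost without the table term (adjusted p = 0.152 for Cdc6 and 0.0588 for Cdt1) and without the filter on low values (0.0584 for Cdc6 and 0.120 for Cdt1).

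Among the cyclins that act after the D cyclins, Ccna2, the cyclin of S phase and G2, was at 9.31, 5.77, 1.37 and 1.71 FPKM in Ebi3-Treg 1 to 4, and at 22.3, 18.8, 14.2 and 18.1 FPKM in Blimp1-Treg 1 to 4. The populations did not overlap, and the log2 fold change was -2.06 (SE 0.31, adjusted p = 0.00822, with 0.0516 and no call without the table term). It was -1.36 in replicates 1 and 2 against -2.75 in replicates 3 and 4, a difference between tables that was not called (limma, unadjusted p = 0.0124). Ccna2 was the 1 of 5 tested genes of its list that fell, 0 rose, and 4 fell in the blocked fit. The 3 added were the G1 cyclin genes Ccne1 (-0.65, adjusted p = 0.104, with 0.0108 when blocked) and Ccne2 (-0.61, adjusted p = 0.192, with 0.0145), and their kinase Cdk2 (-0.39, adjusted p = 0.131, with 0.0182). The phosphatase gene Cdc25a was at 0.09 on that scale (adjusted p = 0.945).

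Of 12 pocket protein, E2F and DP genes, 1 fell, 0 rose and 11 did not pass, and the blocked fit gave 1 higher and 3 lower. The one that fell was E2f7, a repressor of the E2F family, at 2.13, 0.662, 0.424 and 1.07 FPKM in Ebi3-Treg 1 to 4, and at 4.09, 2.71, 3.53 and 4.26 FPKM in Blimp1-Treg 1 to 4 (log2 fold change -1.22, adjusted p = 0.0407). Leaving out Ebi3-Treg 2, 3 or 4, or else Blimp1-Treg 1, 3 or 4, ended that call (adjusted p up to 0.147), as did leaving out the table term (0.0509), a pseudocount of 0.1 (0.0598) and no filter on low values (0.118). The pocket protein gene Rbl1 was at -0.45 on the log2 scale (adjusted p = 0.0889, with 0.0146 when blocked), and Rbl2, the pocket protein of resting cells, at 0.02 (adjusted p = 0.989). E2f8 (-1.35, adjusted p = 0.0617, with 0.00636 when blocked) and E2f5 (0.53, adjusted p = 0.182, with 0.0193) were the others called in the blocked fit. The median of the list was -0.13. Of 7 MuvB and late regulator genes none passed with limma, 1 had an unadjusted p under 0.05 and 2 fell in the blocked fit, Mybl2 (log2 fold change -1.05, adjusted p = 0.124, with 0.0211 when blocked) and Foxm1 (-0.91, adjusted p = 0.307, with 0.0184), with a list median of -0.09.

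**Figure D4:**
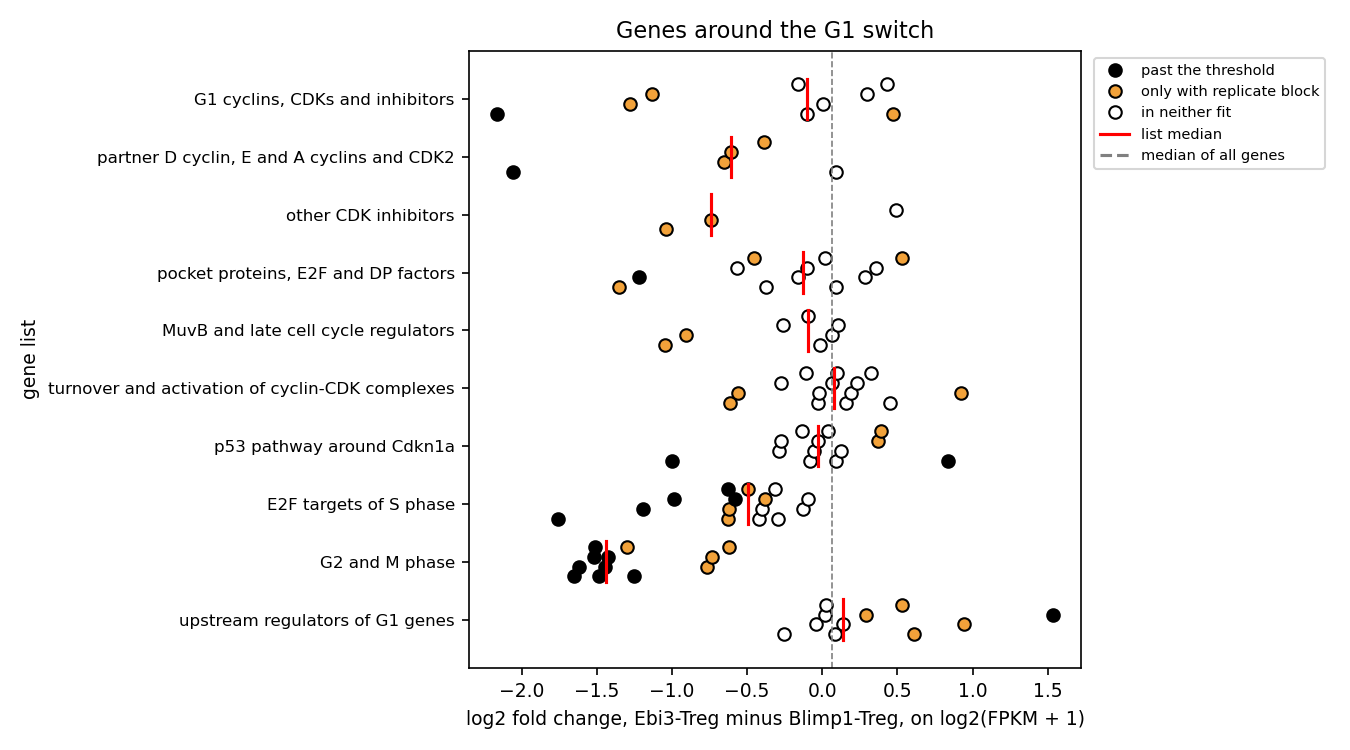
Log2 fold change, Ebi3-Treg minus Blimp1-Treg on log2(FPKM + 1), of each tested gene by list. Points are black where the adjusted p was under 0.05 and orange where it was so only in the fit blocked on replicate number, with red lines at list medians and a dashed line at the median of all genes, 0.07. The lists of the G2 and M phases (median -1.44) and of S phase (median -0.49) lie on the negative side, while the G1 genes spread from -2.16 to 0.47.

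Of 13 tested p53 pathway genes around Cdkn1a, 1 rose, 1 fell and 11 did not pass, with a median of -0.03, and 3 rose and 1 fell in the blocked fit. Btg2, an antiproliferative p53 target, was higher, at 148, 184, 213 and 230 FPKM in Ebi3-Treg 1 to 4, against 85.6, 103, 125 and 117 FPKM in Blimp1-Treg 1 to 4 (log2 fold change 0.83, adjusted p = 0.00908). The call on Btg2 was lost without Ebi3-Treg 4 or Blimp1-Treg 4, with adjusted p up to 0.0535, and without the table term (0.0541). Trp53inp1, which encodes a p53-induced nuclear protein, was lower, at 71.3, 49.0, 93.3 and 97.3 FPKM in Ebi3-Treg 1 to 4 against 130, 104, 188 and 206 FPKM in Blimp1-Treg 1 to 4 (log2 fold change -1.0, adjusted p = 0.00888, with 0.126 and no call without the table term). Trp53 itself was at 0.39 on the log2 scale (adjusted p = 0.104, with 0.0221 when blocked), and Mdm2, the p53 antagonist, at -0.14 (adjusted p = 0.690).

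Of 11 genes known to act on G1 cyclins and inhibitors, 1 rose, 0 fell and 10 did not pass, with a median of 0.13, and 5 rose in the blocked fit. Myc, which drives growth and is known to raise D cyclins and Cdk4 and to repress Cdkn1a, was at 179, 118, 129 and 167 FPKM in Ebi3-Treg 1 to 4, and at 61.6, 37.5, 46.0 and 57.1 FPKM in Blimp1-Treg 1 to 4. No libraries overlapped, and the log2 fold change was 1.54 (SE 0.21, adjusted p = 0.00600). Foxp1 (0.53, adjusted p = 0.0726, with 0.00491 when blocked) and Klf2 (0.94, adjusted p = 0.112, with 0.00758), both factors of resting T cells, passed in the blocked fit. So did Stat5a (0.61, adjusted p = 0.0973, with 0.0231 when blocked) and Stat5b (0.29, adjusted p = 0.745, with 0.0460). Foxo1, which raises Cdkn1b, was at 0.02 on the log2 scale (adjusted p = 0.965). Of 14 genes that assemble or degrade cyclin-CDK complexes none passed with limma, with 1 higher and 1 lower at an unadjusted p under 0.05. The blocked fit gave 1 higher and 2 lower, near the share of all genes called there (22.4%). The deubiquitinase gene Usp2, known in human cells to stabilise cyclin D1, had the smallest p (log2 fold change 0.92, adjusted p = 0.0920, with 0.00892 when blocked), at 5.10 to 11.0 FPKM in Ebi3-Treg against 2.01 to 4.29 FPKM in Blimp1-Treg. Of 3 other genes named as CDK inhibitors, Cdkn1c, Cdkn2b and Cdkn3, none passed with limma, with a median of -0.74. Cdkn2b and Cdkn3 were lower at an unadjusted p under 0.05 and in the blocked fit. Cdkn1c went the other way, at 0.49 (adjusted p = 0.308).

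The tested genes whose values over the 8 libraries were most like those of Cdkn2c were Rnh1, a ribonuclease inhibitor gene, with a Pearson r of 0.989, and Plin2, which encodes a lipid droplet protein, with 0.984. The 8 points share population, table and library, and these r are a description. Plin2 averaged 23.3 ± 3.53 FPKM in the 4 Ebi3-Treg libraries and 65.9 ± 10.8 FPKM in the 4 Blimp1-Treg libraries (± SD; log2 fold change -1.46, adjusted p = 0.00120). Rnh1 averaged 98.3 ± 8.86 FPKM in the 4 Ebi3-Treg libraries and 133 ± 4.91 FPKM in the 4 Blimp1-Treg libraries (± SD). Its log2 fold change was -0.44 (adjusted p = 0.0642, with 0.00708 and a call in the blocked fit).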

How the data were processed

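RNA of 8 libraries was measured, 4 per population. The build mm9 and the tools HTSeq 0.6.1, TopHat2 2.0.12 and Bowtie2 2.2.3 are named in the submitters' processing notes. Each tool's role, the annotation and how reads were counted were not given in the sources used here. Per the labels, libraries were made with a low-input SMART-Seq v4 kit, which amplifies cDNA, so read limits cover counting error only. The deposited unit is FPKM, which the authors computed per gene, in 2 tables. Unannotated features (640 and 612) were dropped. Symbols, exon lengths and overlaps came from GENCODE M21 (GRCm38). Because builds differ, coordinates are given only for the RefSeq windows.

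Low values were whole multiples of 1 read, which gave the depths (94.1% to 95.6% of the low values of short single-exon genes were whole, within 0.01). Genes that reached 1 FPKM in 4 or more libraries were fitted as log2(FPKM + 1) with limma 3.58.1 (R 4.3.3) on population plus table, with a variance trend and two-sided Benjamini-Hochberg adjusted p. The fit was tested on simulated data. A log2(FPKM + 1) change understates that of low genes.

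Deviations from population means correlated between same-numbered libraries (r = 0.62, 0.89, 0.53 and 0.54 for numbers 1 to 4), so the replicate block is given where it changes a call. Between Ebi3-Treg 3 and Blimp1-Treg 4 r was 0.56, and between Ebi3-Treg 4 and Blimp1-Treg 3 it was 0.61, so numbers 3 and 4 pair no better than their table. The members and lists were chosen with earlier results of these data known. Named were all members, up to 4 genes past the threshold of each list (or the 1 with the smallest p), and the 2 genes most like each called member in Pearson r. Other genes named from the lists, Tspan31, Rcbtb2, Lpar6 and the cell type markers were chosen after their values were seen.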

Additional observations from a re-analysis of the deposited data

Results flagged for a closer look

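Within a population of 4 libraries, 64 sets of values were examined for a library far from the other 3, and 3 were found, all in Ebi3-Treg 2, where chance gives about 1 in 20. Cdkn1a was at 72.2 FPKM in Ebi3-Treg 2 and at 14.3 to 18.9 FPKM in the other Ebi3-Treg libraries. The share of Cdkn2c in the summed FPKM of Cdkn2c and Cdkn2d was 27.8% in Ebi3-Treg 2 and 13% to 14.6% in the others. Usp2 was at 11.0 FPKM in Ebi3-Treg 2 and at 5.10 to 6.06 FPKM in the others. Without Ebi3-Treg 2 the log2 fold change was -1.61 for Cdkn1a (adjusted p = 0.115) and -2.35 for Cdkn2c (adjusted p = 0.00173). No gene's fold change was called different between the tables (limma, 0 of 12273, and 203 by unadjusted p under 0.05).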

How the results depend on the processing

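Over 22 other settings, 2 of them chosen after seeing the data, Cdkn2c was called lower in 21, the exception being replicates 1 and 2 alone (log2 fold change -2.14, adjusted p = 0.331), where limma called 0 of 12273 genes, with 707 at an unadjusted p under 0.05. The 772 genes called in all became 2752 with the replicate block, 420 without a filter on low values, 441 without the table term, 1347 in replicates 3 and 4 alone, 1970 and 1962 without both libraries numbered 1 and 2, and 1606 and 1663 there with the replicate block (added). When each library was left out in turn they ran from 341 to 771, with 385 and 370 without Ebi3-Treg 3 and 4 and 403 and 341 without Blimp1-Treg 3 and 4.

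Members called lower numbered 3 with the replicate block (also in both added fits), without both libraries numbered 1 or 2, and in replicates 3 and 4 alone, 2 with median ratio scaling and with quantile normalization, 0 in replicates 1 and 2 alone, and 1 to 2 with a library left out. Members called higher, 0 with all libraries and no block, numbered 1 with the replicate block, without both libraries numbered 1 or 2, and in the added block without those numbered 2, and 0 with any single library left out. Cdk4 accounted for that call. Its adjusted p was 0.0524 in the added block without the libraries numbered 1.

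The block changed the call of no member but Cdk4, Cdk6 and Cdkn1a. Signs turned for Cdkn2d, which was at -0.055 with median ratio scaling, -0.052 with quantile normalization, -0.086 without both libraries numbered 2 (also in the added replicate block) and -0.056 in replicates 3 and 4 alone. With a library left out it ran from -0.14 to 0.127, negative without Ebi3-Treg 1 (-0.055), Ebi3-Treg 3 (-0.017), Blimp1-Treg 2 or Blimp1-Treg 4 (-0.032). Rb1 ran from -0.302 to 0.0237, positive without Ebi3-Treg 2. Neither gene was called in any of these settings, and the cause was not tested. The median of all genes moved by less than 0.1 in either scaling. Depth limits Cdkn2a, at 0 to 6 reads a library.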

Other observations

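Replicate 2 stood apart in both populations for several genes of the lists. Gadd45a, a stress-induced gene that p53 can raise, was at 63.2 FPKM in Ebi3-Treg 2 and at 20.3 to 24.3 FPKM in the other Ebi3-Treg libraries, and at 78.3 FPKM in Blimp1-Treg 2 against 14.6 to 35.0 FPKM in the other Blimp1-Treg libraries. Pcna, the sliding clamp of DNA polymerase, reached 379 FPKM in Ebi3-Treg 2, against 160 to 183 FPKM in the other Ebi3-Treg libraries, and 458 FPKM in Blimp1-Treg 2, against 167 to 196 FPKM in the other Blimp1-Treg libraries. Cks2, which encodes a small CDK-binding protein, reached 62.0 FPKM in Ebi3-Treg 2 (13.3 to 29.1 FPKM in the other 3) and 132 FPKM in Blimp1-Treg 2 (18.4 to 44.5 FPKM in the other 3). For Rbl2 replicate 2 was instead the lowest, at 99.4 FPKM in Ebi3-Treg (209 to 265 FPKM in the other 3) and 84.97 FPKM in Blimp1-Treg (184 to 308 FPKM in the other 3). These genes were picked after their values were seen.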
